A study of Mus musculus with 16 samples.

Results

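The comparison described here was made within animals, between striatum and cortex of the 4 Trrap-FBΔ mice, and uses 8 of the 16 libraries in the series. Members were chosen by label alone, as every library with the genotype Trrap Fl/Fl; Camk2-Cre tg, so that mice 57, 59, 60 and 61 each gave 1 striatum and 1 cortex library. All mice were 10 days old (P10), came from the C57BL6/J-129sv background and carried the Camk2-Cre transgene. Trrap-FBΔ mice had both Trrap alleles floxed, whereas controls (Trrap Fl/+; Camk2-Cre tg) also expressed Cre and had 1 floxed allele beside a wild-type one. Control mice 58, 63 and 64 gave both tissues, and control mice 55 (cortex) and 65 (striatum) gave 1 tissue each. The driver, Tg(Camk2a-cre/ERT2)2Gsc, places Cre under the Camk2a promoter of forebrain neurons, so each library also held RNA of cells in which Trrap was not deleted. The name of this line is that of a tamoxifen-inducible Cre, and no tamoxifen treatment of these mice is described in the sources used here. Of the 4 Trrap-FBΔ mice 3 were female. Control mice 55 and 63 were female and control mice 58, 64 and 65 male, so sex was not balanced between the genotypes. The 8 libraries held 36720701 to 48761429 gene counts, against 28743866 to 48761429 over all 16.

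TRRAP is a scaffold shared by the SAGA and TIP60 complexes, which acetylate histones and are brought to promoters by transcription factors. The cortex and the striatum arise from different parts of the embryonic telencephalon. Cortical projection neurons come from the pallium, use glutamate and depend on factors such as EMX1, TBR1 and the NEUROD family. Most neurons of the striatum come from the subpallium, use GABA, and divide into direct pathway cells with dopamine receptor D1 and indirect pathway cells with dopamine receptor D2 and an adenosine receptor. A comparison of the 2 tissues within Trrap-deleted mice asks which regional expression programme is measured after the deletion. Because the tissue pieces are bulk samples, fewer cells of a type and less RNA per cell cannot be told apart.

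The targeted gene Trrap was at similar levels in both tissues, with no difference that passed the test. Its striatum values were 148, 135, 144 and 138 CPM (counts scaled to the TMM-normalized total of each library) in mice 57, 59, 60 and 61, the order kept throughout, and its cortex values 121, 137, 135 and 146 CPM, with a log2 fold change of striatum over cortex of 0.07 ± 0.06 (SE; adjusted p = 0.351, edgeR quasi-likelihood test with Benjamini-Hochberg adjustment). The 4 control striatum libraries (mice 58, 63, 64 and 65) held 151, 139.9, 150.0 and 142 CPM and the 4 control cortex libraries (mice 55, 58, 63 and 64) 173, 156, 136 and 146 CPM, so Trrap-FBΔ and control values overlapped. The gene count also takes reads from exons outside the floxed part and from cells without Cre, so it is no direct measure of the deletion. Camk2a, whose promoter drives the Cre, had 757, 593, 715 and 480.4 CPM in striatum and 2175, 2099.9, 2045 and 2021 CPM in cortex. All cortex libraries were above all striatum libraries (-1.73 ± 0.09; adjusted p = 9.18e-07).

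The tissue labels were then checked against defining markers, and markers of striatal projection neurons gave a divided answer. Ppp1r1b, Adora2a and Drd1 did not pass as higher in the libraries labelled striatum. Drd2, Penk, Tac1, Isl1, Six3 and Rgs9 passed as higher in striatum, and Arpp21, Gng7, Bcl11b and Chrm4 as higher in cortex, with values given below. Of 18 shared, 10 direct pathway and 8 indirect pathway markers tested, 6, 6 and 5 were higher in striatum. In the same order 5, 3 and 2 were higher in cortex, against 28.5% of all genes tested in each direction. Ppp1r1b, which encodes the dopamine-regulated phosphatase inhibitor DARPP-32 and is a standard marker of these neurons, had 128, 66.4, 64.6 and 72.7 CPM in the striatum libraries of mice 57, 59, 60 and 61, and 72.4, 72.0, 102 and 105 CPM in their cortex libraries. The tissues overlapped, and the log2 fold change was -0.13 ± 0.21 (adjusted p = 0.631). Adora2a, the adenosine receptor gene of indirect pathway neurons, gave 34.3, 16.6, 14.6 and 16.9 CPM in striatum and 16.7, 17.7, 24.8 and 26.6 CPM in cortex, in the same mouse order. Again the groups overlapped, and mouse 57 was the only animal with a clearly higher striatum value. Drd1 had a log2 fold change of -0.37 ± 0.14 (adjusted p = 0.0583), from 24.9, 15.0, 16.9 and 15.6 CPM in striatum and 20.3, 20.1, 27.4 and 24.2 CPM in cortex. The labels were checked in controls too, where Ppp1r1b ranged from 19.4 to 299 CPM over 4 striatum libraries and from 51.7 to 185 CPM over 4 cortex libraries. The libraries are therefore called by their labels throughout, and "striatum" below means the library label.

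**Figure D1:**
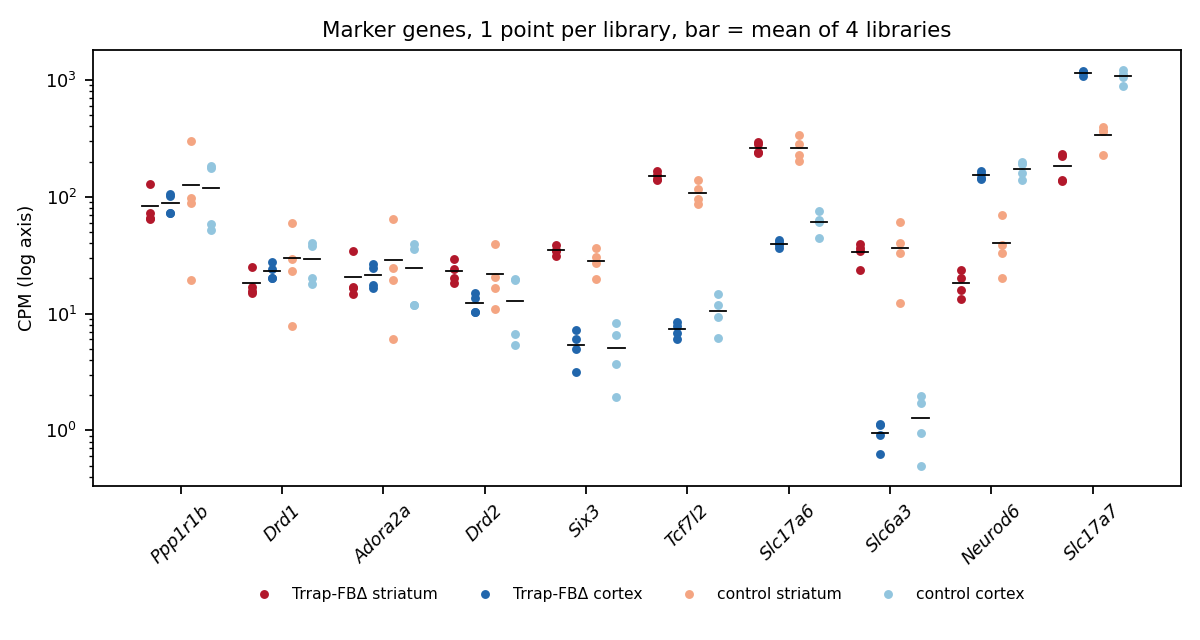
CPM (log axis) of 10 marker genes in each library of the 4 groups, with a bar at the mean of 4 libraries. Ppp1r1b, Drd1 and Adora2a overlapped between the tissues of Trrap-FBΔ mice and Drd2 and Six3 did not, with striatum higher, whereas Tcf7l2, Slc17a6 and Slc6a3 were higher in striatum and Neurod6 and Slc17a7 were higher in cortex, in both genotypes.

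The libraries labelled striatum held transcripts of brain regions behind the telencephalon. Tcf7l2, a transcription factor of the thalamus, had 141, 168, 140.0 and 152 CPM in striatum and 7.81, 8.54, 6.11 and 6.77 CPM in cortex. Slc6a3, the dopamine transporter of midbrain dopamine neurons, had 34.3, 23.5, 39.6 and 36.6 against 1.11, 1.14, 0.626 and 0.917 CPM. Every striatum library was above every cortex library for both genes, and their log2 fold changes were 4.37 ± 0.07 and 5.14 ± 0.16 (adjusted p = 6.57e-09 and 1.06e-07). Pmch, the melanin-concentrating hormone gene of the lateral hypothalamus, had 52.4, 62.8, 71.9 and 63.9 CPM in striatum and 0.967, 1.12, 0.104 and 0.104 CPM in cortex.

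Summed over a list of thalamic markers, the striatum libraries of mice 57, 59, 60 and 61 held 457, 559, 456 and 520.4 CPM and their cortex libraries 64.3, 75.8, 66.5 and 72.1 CPM. The hypothalamic list, like the midbrain and hindbrain lists below, was chosen after the values were seen, so these sums are a description only. Hypothalamic markers summed to 134, 165, 179 and 159 CPM in striatum and to 8.94, 9.88, 6.42 and 11.8 CPM in cortex. Midbrain markers summed to 170.5, 189.9, 151 and 219 CPM in striatum and to 15.6, 17.2, 12.7 and 14.9 CPM in cortex. The control striatum libraries also held these transcripts, with ranges of 349 to 563 CPM for thalamus and 111 to 159 CPM for hypothalamus. Their midbrain sums were 170, 52.5, 106 and 181 CPM in control mice 58, 63, 64 and 65. Control mice 63 and 64 thus lay below every Trrap-FBΔ striatum library for midbrain markers. Habenular and cerebellar lists, also chosen after the values were seen, had sums that overlapped between the tissues of Trrap-FBΔ mice. Habenular sums were 86.1 to 99.3 CPM in striatum and 88.4 to 102 CPM in cortex. By member, however, 4 of the 5 habenular genes were higher in striatum past 2-fold and 1 was higher in cortex. Cerebellar sums were 32.2 to 42.9 CPM in striatum and 35.3 to 41.2 CPM in cortex. The part of tissue from these regions in the differences that follow was not tested, and tissue content and regional identity cannot be told apart in these libraries.

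Hindbrain markers split the 4 mice. Reads on 39 Hox genes, the position genes of the hindbrain and spinal cord, numbered 22, 144, 17 and 401 in the striatum libraries of mice 57, 59, 60 and 61, and 18, 22, 14 and 10 in their cortex libraries. The hindbrain and raphe list summed to 23.2, 70.0, 6.87 and 77.4 CPM in striatum and to 5.61, 6.28, 6.19 and 5.42 CPM in cortex. Mice 59 and 61 were thus high in striatum on both measures, as was control mouse 58 with 415 Hox reads. The striatum library of control mouse 65 had 132 Hox reads and a hindbrain sum of 41.5 CPM. The count over all genes is also given without mice 59 and 61, as are list counts whose total moved by over 1.5 times without them.

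**Figure D2:**
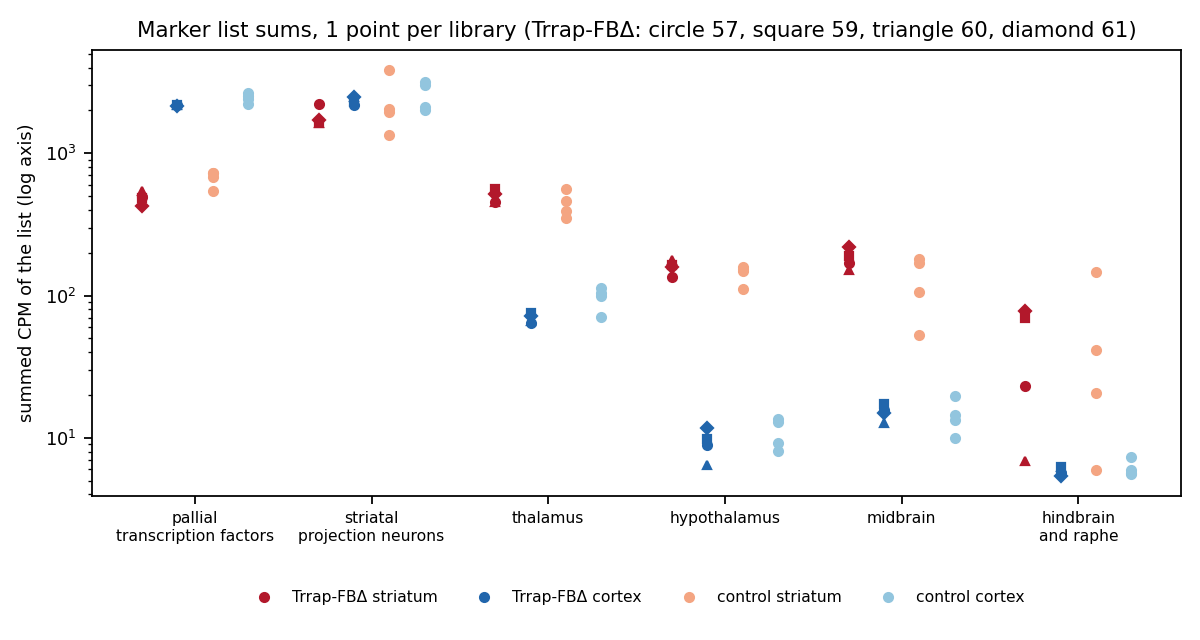
Summed CPM (log axis) of 6 marker lists in each library, with the 4 Trrap-FBΔ mice shown by symbol. Thalamus, hypothalamus and midbrain sums were higher in every striatum library than in any cortex library. The hindbrain sum was high in striatum of mice 59 and 61 and of control mice 58 and 65. Sums over projection neuron markers overlapped between tissues in both genotypes. The hypothalamic, midbrain and hindbrain lists were chosen after the values were seen.

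Over the whole transcriptome, 10757 of 18872 genes tested differed between the tissues of Trrap-FBΔ mice, 57% of those tested. Of these, 5376 were higher in striatum and 5381 higher in cortex, 28.5% of the genes tested in each direction. Upper-quartile normalization split the calls differently, into 6553 higher and 4302 lower in striatum. With a fold change over 2 required as well, 1359 genes (7.20%) were higher in striatum and 832 (4.41%) higher in cortex, 11.6% in all. Past 4-fold there were 330 (1.75%) and 194 (1.03%). Among those past 2-fold, predicted genes without a name made up 272 and 242. Without mice 59 and 61, 8390 genes passed, of which 4321 were higher and 4069 lower in striatum. Counts of list members below stand against these shares of all genes. The libraries of the 2 tissues did not overlap for 9524 genes, 50.5% of those tested.

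With the further conditions of the same sign in every mouse, tissues apart and at least 5 CPM in the higher tissue, 2965 genes (15.7%) were higher in striatum and 3871 (20.5%) higher in cortex. The 12 largest changes towards striatum among them included Pmch, Shox2, Pou4f2, Gata3, Sox14, Foxb1, Mab21l2, Pax7, En1, C1ql4 and Irx2. Apart from Pmch and C1ql4, a secreted synaptic protein, these encode transcription or patterning factors of the diencephalon, midbrain or hindbrain. Shox2, a thalamic homeobox factor, had 31.7, 42.7, 23.8 and 35.7 CPM in striatum and 0.849, 0.446, 0.183 and 0 CPM in cortex, with a fitted log2 fold change of 6.53 ± 0.33 that rests on 59 reads over the 4 cortex libraries. Irx2, an Iroquois factor of the midbrain and hindbrain, had 16.1, 23.9, 11.2 and 29.1 CPM in striatum and 0.495, 0.502, 0.313 and 0.438 CPM in cortex (5.51 ± 0.14). Pou4f2, Gata3, Sox14, Foxb1, Mab21l2, Pax7, En1 and C1ql4 had fitted log2 fold changes of 6.36, 6.18, 5.93, 5.89, 5.89, 5.80, 5.79 and 5.58.

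The 12 largest changes towards cortex included factors of cortical projection neurons. Emx1, a dorsal pallial homeobox gene, had 21.8, 17.1, 19.3 and 20.6 CPM in cortex and 2.34, 1.79, 3.31 and 0.921 CPM in striatum (-3.27 ± 0.23; adjusted p = 4.55e-06). Fezf2, which specifies subcerebral projection neurons of layer 5, had 50.4, 44.8, 44.1 and 47.4 CPM in cortex and 5.08, 3.78, 7.77 and 3.27 CPM in striatum (-3.26 ± 0.18). For both genes no cortex library came near a striatum library, and the spread among striatum libraries was wider in proportion than among cortex libraries. Neurod6 (-3.09 ± 0.13), Mef2c (-3.06 ± 0.11), Hkdc1 (-3.27 ± 0.14), Itprid1 (-3.24 ± 0.21) and Lct (-2.93 ± 0.21) were among the same 12, with the unnamed transcripts A830009L08Rik (-4.17), 9130024F11Rik (-4.02), Gm11549 (-3.78) and Gm39822 (-3.36).

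**Figure D3:**
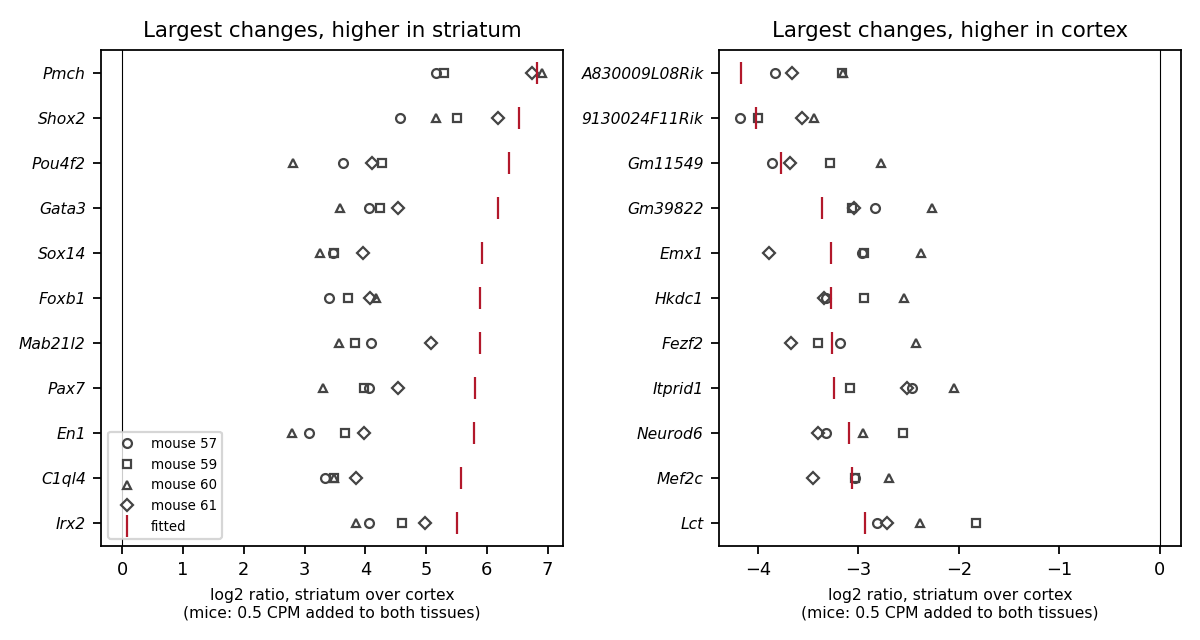
Log2 ratio of striatum over cortex in each Trrap-FBΔ mouse, with 0.5 CPM added to both tissues, for 11 of the 12 largest changes in each direction, and the fitted log2 fold change as a red tick. All 4 mice fell on the same side of 0 for each of the 22 genes, and the added constant pulls the ratios of genes near 0 CPM in cortex below the fitted values.

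By counts, the most abundant genes past 2-fold towards striatum included Mbp, Peg3, Sparc and Hap1, and those towards cortex Slc1a2, Camk2a, Dclk1 and Adcy1. Mbp, the myelin basic protein gene, had 2472, 3269.8, 2027 and 3581 CPM in striatum and 1128, 938, 839.7 and 691 CPM in cortex (1.64 ± 0.18). Slc1a2, the main astrocytic glutamate transporter gene, had 1741, 1801, 1695 and 1534 CPM in striatum and 3686, 3649.6, 3674 and 3299 CPM in cortex (-1.08 ± 0.04). Both were separated between tissues in all mice. Peg3, an imprinted zinc finger gene, Hap1, the huntingtin-associated protein gene, and Sparc, a matricellular glycoprotein gene of astrocytes and vessels, had log2 fold changes of 1.41 ± 0.06, 1.86 ± 0.12 and 1.13 ± 0.05. Dclk1, a microtubule-binding kinase, and Adcy1, a calcium-stimulated adenylyl cyclase, had values of -1.22 ± 0.05 and -1.85 ± 0.04.

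Of 16 pallial transcription factors, 12 were higher in cortex, 1 was higher in striatum and 3 did not pass (median log2 fold change -1.84, against 0.0048 over all genes tested). Tbr1 (-2.51 ± 0.15), Neurod2 (-2.56 ± 0.05), Bhlhe22 (-2.17 ± 0.13), Neurod1 (-1.51 ± 0.05) and Lhx2 (-1.49 ± 0.06) followed Emx1, Fezf2, Neurod6 and Mef2c. Pax6, which is also used outside the pallium, was the member higher in striatum (0.57 ± 0.06), and Eomes, Neurog2 and Cux1 had adjusted p values of 0.427, 0.271 and 0.0695. Without mice 59 and 61 the counts were again 12 and 1. In controls, where 35.0% of genes tested passed, the same list gave 12 higher in cortex and 1 higher in striatum, with a median of -1.17.

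Markers of cortical layers were lower in striatum for most members. For layers 2 to 4, 9 of 14 were higher in cortex and 1 in striatum (median -0.76). For layer 5, 8 of 11 were higher in cortex and 1 in striatum (median -0.93), with Crym, a thyroid hormone binding protein gene, at -2.13 ± 0.24. For layer 6 and subplate, 9 of 13 were higher in cortex and 2 in striatum (median -0.34). The exceptions were Unc5d (0.30 ± 0.09), a netrin receptor, Deptor (0.24 ± 0.07), an mTOR inhibitor, Foxp2 (1.5 ± 0.08), which striatal projection neurons also express, and Nxph4 (2.51 ± 0.10), a neurexophilin. In the list of Cajal-Retzius cells, 3 of 6 members were higher in striatum and 1 was higher in cortex. The members that were higher were Ebf3 (4.27 ± 0.06), Lhx1 (4.06 ± 0.12) and Lhx5 (3.80 ± 0.13), factors also known from diencephalon and brainstem, whereas Reln and Trp73, the defining markers, had adjusted p values of 0.129 and 0.737.

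Among 18 shared markers of striatal projection neurons, 6 were higher in striatum, 5 higher in cortex and 7 did not pass (median 0.06). These shares lie near the 28.5% of all genes tested called in each direction. Arpp21, a cAMP-regulated phosphoprotein gene (-1.30 ± 0.08), Gng7, a G protein subunit gene (-0.89 ± 0.10), and Bcl11b, the CTIP2 factor that cortical layer 5 shares (-0.74 ± 0.15), were among those higher in cortex. Gpr149 (1.41 ± 0.08), Dach1 (0.82 ± 0.09), Syndig1l (0.54 ± 0.12) and Rgs9 (0.46 ± 0.14) were higher in striatum. The list sum was 2228, 1629.9, 1641 and 1709.6 CPM in striatum and 2173, 2287, 2498 and 2477 CPM in cortex. Mouse 57 had the highest striatum sum and was the only animal whose striatum library reached the cortex range. Without mice 59 and 61, 9 members were higher in striatum and 5 higher in cortex. In a fit of the 14 libraries of both genotypes, 2 were higher in striatum and 4 higher in cortex.

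Of 10 direct pathway markers, 6 were higher in striatum and 3 higher in cortex, against 28.5% of all genes tested in each direction (median 0.55). Isl1, a LIM homeobox factor, had 16.0, 14.3, 16.4 and 13.2 CPM in striatum and 1.51, 3.46, 3.45 and 3.50 CPM in cortex (2.34 ± 0.19). Ebf1 (1.73 ± 0.08), Zfp521 (1.59 ± 0.04) and the substance P precursor Tac1 (0.95 ± 0.07) were higher as well, and Chrm4, a muscarinic receptor gene, was higher in cortex (-1.27 ± 0.11). Of 8 indirect pathway markers tested, 5 were higher in striatum and 2 higher in cortex (median 0.60). Six3, a homeobox factor, had 38.9, 31.4, 34.5 and 35.1 CPM in striatum and 3.18, 6.11, 4.93 and 7.17 CPM in cortex (2.72 ± 0.18). Drd2 had 29.0, 20.1, 18.4 and 24.3 CPM in striatum and 10.2, 10.2, 13.7 and 15.1 CPM in cortex (0.89 ± 0.15), and Penk, the enkephalin precursor, 122, 80.1, 76.6 and 91.4 and 44.0, 51.7, 67.2 and 69.0 CPM (0.67 ± 0.17). Their tissues did not overlap, with mouse 57 the highest striatum value for both. Isl1, Ebf1, Six3 and Drd2 are also used in the diencephalon, midbrain or pituitary, and the part of those regions in their values was not tested. In the fit of 14 libraries, 2 indirect pathway members were higher in striatum and 1 was higher in cortex. Striosome markers gave 2 higher and 4 lower of 7 (median -0.25; 2 and 2 without mice 59 and 61), and matrix markers 1 higher and 4 lower of 6 (median -0.50), with Oprm1, the mu opioid receptor gene, at 0.91 ± 0.17 and Epha4, an ephrin receptor gene, at -1.48 ± 0.05.

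Of 21 subpallial transcription factors, 9 were higher in striatum and 4 higher in cortex (median 0.26). Pbx3 (1.72 ± 0.09), Zfp503 (1.64 ± 0.13) and Meis1 (1.27 ± 0.12) were higher in striatum, while Foxp1 (-1.05 ± 0.07) was higher in cortex. Dlx1 and Dlx2, core factors of GABAergic development, had adjusted p values of 0.127 and 0.603. Without mice 59 and 61 the counts were 13 and 3, and Dlx2 was then higher in striatum, at 0.30 (adjusted p = 0.030).

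Genes of the main transmitters divided between the tissues. Slc17a7, which encodes the vesicular glutamate transporter VGLUT1 of cortical neurons, had 231, 136, 225 and 139 CPM in striatum and 1079, 1204, 1168 and 1183 CPM in cortex. Slc17a6, for VGLUT2 of thalamic and brainstem neurons, had 236, 296, 241 and 281 CPM in striatum and 36.4, 42.9, 38.4 and 41.3 CPM in cortex. The tissues were apart for both, in opposite directions, with log2 fold changes of -2.71 ± 0.15 and 2.72 ± 0.04 (adjusted p = 1.48e-06 and 9.01e-09). Slc17a8, for VGLUT3, did not pass (-0.23 ± 0.14; adjusted p = 0.187). All 4 genes of GABA synthesis and transport were higher in striatum (median 0.85), with Gad2, a glutamate decarboxylase gene, at 529, 514, 566 and 485 CPM in striatum and 186, 249, 231 and 252 CPM in cortex (1.2 ± 0.08). All 6 genes of cholinergic neurons were higher in striatum (median 1.84). Chat, the acetylcholine-synthesizing enzyme, had 5.25, 4.64, 3.96 and 6.11 CPM in striatum and 0.873, 1.84, 1.33 and 1.79 CPM in cortex (1.79 ± 0.18), and Gbx2, which thalamic neurons also use, was the largest of the list (4.42 ± 0.19). Th, the tyrosine hydroxylase of dopamine synthesis, had 26.4, 23.2, 26.4 and 29.4 against 3.82, 4.80, 3.68 and 4.08 CPM (2.69 ± 0.10).

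To show the sequence at which genes of known regional identity begin, the 250 bases before the annotated start are printed for the 2 vesicular glutamate transporters and for 3 transcription factors whose tissue difference also differed between genotypes (RefSeq, GRCm38.p6; 5′ to 3′ on the gene's strand, first listed start of each gene). Capitals mark the 4 motifs searched on both strands, the GC box GGGCGG, the start of the CRE TGACGT, the homeodomain core TAATTA and the E-box CAGATG, and GC boxes may overlap one another. The positions were chr7:45163671-45163920 (plus strand), chr7:51621580-51621829 (plus), chr11:98329646-98329895 (minus), chr19:55741560-55741809 (plus) and chr13:72628570-72628819 (plus).
Slc17a7: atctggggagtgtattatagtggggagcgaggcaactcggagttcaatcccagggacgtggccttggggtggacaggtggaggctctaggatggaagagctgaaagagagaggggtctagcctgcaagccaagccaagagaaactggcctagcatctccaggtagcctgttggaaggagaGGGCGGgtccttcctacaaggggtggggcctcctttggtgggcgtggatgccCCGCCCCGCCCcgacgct
Slc17a6: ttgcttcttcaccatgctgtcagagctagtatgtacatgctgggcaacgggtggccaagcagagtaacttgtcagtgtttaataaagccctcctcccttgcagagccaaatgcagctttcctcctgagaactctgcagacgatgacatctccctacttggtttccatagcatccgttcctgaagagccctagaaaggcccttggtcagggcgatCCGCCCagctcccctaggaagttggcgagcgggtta
Neurod2: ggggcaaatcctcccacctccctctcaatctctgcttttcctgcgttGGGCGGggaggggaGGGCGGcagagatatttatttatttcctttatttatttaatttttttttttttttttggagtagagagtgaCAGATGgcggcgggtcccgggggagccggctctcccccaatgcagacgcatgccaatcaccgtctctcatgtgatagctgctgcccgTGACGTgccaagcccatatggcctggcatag
Tcf7l2: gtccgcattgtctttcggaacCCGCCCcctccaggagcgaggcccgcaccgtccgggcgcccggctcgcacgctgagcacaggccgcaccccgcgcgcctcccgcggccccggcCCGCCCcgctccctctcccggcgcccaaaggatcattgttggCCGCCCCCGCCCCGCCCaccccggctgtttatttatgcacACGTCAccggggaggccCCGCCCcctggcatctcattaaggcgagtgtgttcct
Irx2: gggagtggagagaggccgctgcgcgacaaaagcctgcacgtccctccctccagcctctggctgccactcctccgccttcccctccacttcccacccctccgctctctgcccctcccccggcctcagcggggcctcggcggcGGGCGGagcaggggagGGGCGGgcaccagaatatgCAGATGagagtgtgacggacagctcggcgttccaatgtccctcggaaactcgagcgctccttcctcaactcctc
The windows held 3, 1, 4, 7 and 3 motif matches in this order, and the GC box was present in each. A second listed start of Slc17a6 and of Tcf7l2, not printed, had 2 and 0 matches in its window and no GC box. Across promoters of the genes tested, 57.1% held a GC box, against 42.3% (95% Wilson interval 39.5 to 45.1) for genes past 2-fold in striatum and 40.3% (36.8 to 44.0) for genes past 2-fold in cortex. The E-box CAGATG was in 12.8% of promoters of all genes tested, in 16.2% (14.2 to 18.5) of those of striatum genes and in 19.7% (16.9 to 22.8) of those of cortex genes. Past 4-fold the E-box shares were 16.8% (12.8 to 21.7) for striatum and 28.8% (22.3 to 36.2) for cortex. The homeodomain core was in 3.24% of promoters of genes tested. Past 2-fold it was in 4.42% (3.39 to 5.75) for striatum and 6.51% (4.91 to 8.57) for cortex. Past 4-fold these shares were 7.66% (5.07 to 11.4) and 10.6% (6.74 to 16.4), from 21 of 274 and 17 of 160 promoters. The start of the CRE was in 10.1% of promoters of genes tested, and past 2-fold in 5.70% (4.51 to 7.17) and 5.80% (4.30 to 7.77). GC box shares past 4-fold were 39.4% (33.8 to 45.3) for striatum and 28.1% (21.7 to 35.5) for cortex. The shares were counted in a longer window than the one printed, 250 bases before and 50 bases after the start. The intervals cover counting error only, and 13190 of the genes tested had a promoter in the table. These shares describe letters in a fixed window and no binding.

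Inhibitory interneuron markers split, with 6 of 15 higher in striatum and 7 higher in cortex (median -0.03). Vip (-2.21 ± 0.09), Npy (-0.92 ± 0.09), Sst (-0.52 ± 0.08) and Lhx6 (-0.55 ± 0.21) were higher in cortex, whereas Pvalb (2.08 ± 0.16), Calb2 (2.35 ± 0.06) and Nkx2-1 (2.55 ± 0.23) were higher in striatum. Calb2 and Nkx2-1 are also used in thalamus and hypothalamus. Without mice 59 and 61 Lhx6 was at 0.02 (adjusted p = 0.89). Neuropeptide genes gave 8 higher in striatum and 8 higher in cortex of 16, with Cort (-2.56 ± 0.16), Cck (-1.82 ± 0.08) and Crh (-1.01 ± 0.15) on the cortex side and Cartpt (0.96 ± 0.11), Pnoc (0.92 ± 0.06) and Nts (0.81 ± 0.11) on the striatum side.

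Receptor genes for neuromodulators were higher in cortex for 19 of 35 members and higher in striatum for 12 (median -0.57). Chrm1, the M1 muscarinic receptor gene (-2.28 ± 0.14), Sstr4, a somatostatin receptor gene (-2.15 ± 0.09), and Cckbr, a cholecystokinin receptor gene (-1.88 ± 0.06), were the most cortical. Htr2c, a serotonin receptor gene (1.57 ± 0.11), Chrm2, the M2 muscarinic receptor gene (1.40 ± 0.08), and Oprk1, the kappa opioid receptor gene (1.40 ± 0.11), were the most striatal apart from Gpr149. In dopamine, adenosine and cAMP signalling 8 of 27 members were higher in striatum and 9 higher in cortex (median -0.09), near the 28.5% of all genes tested in each direction. Glutamate receptors gave 7 higher in striatum and 13 higher in cortex of 22 (median -0.37), led on the cortex side by the NMDA receptor genes Grin2a (-1.36 ± 0.04) and Grin2b (-1.32 ± 0.11). GABA-A receptor subunits gave 2 and 6 of 12 (median -0.13), with Gabrd (-1.62 ± 0.08) most cortical and Gabrg1 (1.21 ± 0.06) most striatal.

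Activity-linked genes were lower in striatum throughout the list. All 12 immediate early genes were higher in cortex (median -1.06), and all 12 remained so without mice 59 and 61 and under upper-quartile normalization. Egr1, a zinc finger factor, had 73.1, 44.1, 50.1 and 42.6 CPM in striatum and 164, 166, 144 and 148 CPM in cortex (-1.60 ± 0.11), and Arc, a synaptic effector, 28.6, 21.1, 23.8 and 23.1 and 53.7, 41.2, 42.4 and 45.9 CPM (-0.93 ± 0.04). Fos differed least, at 21.1, 18.1, 19.2 and 14.7 and 25.7, 23.9, 21.6 and 19.9 CPM (-0.32 ± 0.06), and its tissues overlapped. In controls 11 of the 12 were higher in cortex (median -0.90). CaM kinase genes gave 9 of 12 higher in cortex and 2 higher in striatum (median -0.61), with Camk4 (-1.21 ± 0.05) and Camkk2 (-1.37 ± 0.05) beside Camk2a, and Camk2d (0.95 ± 0.08) on the striatum side.

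Of 17 stathmin and tubulin genes, 11 were higher in cortex and 6 did not pass (median -0.20). Stmn1 (-0.65 ± 0.06) and Stmn4 (-0.47 ± 0.07) were higher in cortex, and Tubb3 was at -0.09 ± 0.05 (adjusted p = 0.149). Under upper-quartile normalization the counts were 9 and 1. Microtubule-associated proteins gave 7 of 13 higher in cortex (median -0.12), led by Dclk1 and Dcx, a protein of migrating neurons (-1.14 ± 0.05), while Map2 was at 0.0043 ± 0.04 (adjusted p = 0.941). Only 4 of the 13 were higher in cortex without mice 59 and 61.

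Subunits of the 2 complexes that hold TRRAP had small differences. Of 33 SAGA and TIP60 genes, 5 were higher in striatum and 11 higher in cortex, with log2 fold changes from -0.50 for Actl6b, a neuronal actin-related subunit, to 0.40 for Supt3, a SAGA core subunit. The split turned to 10 higher and 5 lower under upper-quartile normalization and was 6 and 4 without mice 59 and 61. The acetyltransferase genes Kat2a and Kat5 had adjusted p values of 0.123 and 0.386, and Kat2b was higher in striatum (0.33 ± 0.05). Of 7 Sp factors, 3 were higher in striatum and 1 higher in cortex, with Sp1 at 0.31 ± 0.04, Sp3 at -0.17 ± 0.04 and Sp5 at 1.44 ± 0.18. The counts were 4 and 0 without mice 59 and 61.

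Axon guidance and adhesion genes gave 9 of 34 higher in striatum and 18 higher in cortex (median -0.25). Plxnd1 (-1.43 ± 0.09), a semaphorin receptor gene, and Slit3 (-1.04 ± 0.19) were cortical, and Ntn1 (1.38 ± 0.07), a netrin, and Cdh4 (1.0 ± 0.14), a cadherin, were striatal. Retinoid signalling gave 8 higher in striatum and 5 higher in cortex of 17 (median 0.24). Aldh1a3 was higher in cortex (-2.13 ± 0.16) and Aldh1a1, a retinaldehyde dehydrogenase of dopamine neurons, higher in striatum (1.25 ± 0.13).

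Glial genes differed by lineage. All 9 genes of mature oligodendrocytes were higher in striatum (median 1.64), and all 9 remained so without mice 59 and 61, with a median of 1.2. Mog, a myelin glycoprotein gene, had 45.1, 66.0, 35.7 and 74.9 CPM in striatum and 16.9, 16.2, 13.3 and 10.4 CPM in cortex (1.93 ± 0.21). Mice 59 and 61, whose striatum libraries held the most Hox reads, had its highest values. All 8 genes of oligodendrocyte precursors were higher as well (median 0.74). Astrocyte genes gave 6 higher and 2 lower of 9 (median 0.23), from Slc1a2 at -1.08 to Aqp4, a water channel gene, at 1.09 ± 0.09. Their summed level went the other way, at 3932 to 4241 CPM in striatum and 5199 to 5852 CPM in cortex. Microglial genes gave 4 of 8 higher in cortex (median -0.12) and endothelial and mural genes 1 of 9 higher in striatum (median 0.08). In the fit without mice 59 and 61, 1 endothelial or mural gene was higher and 1 lower in striatum.

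Genes of neighbouring tissues were also higher in striatum. Choroid plexus genes were higher in striatum for 7 of 8 (median 1.13; 8 of 8 and 2.19 without mice 59 and 61), and Ttr, the transthyretin gene of this epithelium, had 699, 632, 624 and 257 CPM in striatum and 113, 408, 166 and 292 CPM in cortex. Mouse 61 was the lowest of the striatum libraries for Ttr. All 4 ependymal genes (median 1.39) and 5 of 6 meningeal genes (median 0.33) were higher in striatum. Of 5 blood genes 0 passed the edgeR test and 0 had an unadjusted p under 0.05 (median 0.09), whereas 4 of the 5 were higher in striatum without mouse 57. Of 6 cell cycle genes, 2 were higher in striatum (median 0.19; 1 without mice 59 and 61). The thalamic list passed for 4 of 4 members (median 3.22). Lists of 5 other regions were chosen after the values were seen, and genes near 0 in cortex pass the filter on low counts through striatum, so their direction is a description and supports nothing. The filter passed 17 of 19 hypothalamic, 5 of 5 habenular, 17 of 17 midbrain, 5 of 16 hindbrain and raphe, and 4 of 5 cerebellar genes. Their medians were 3.99, 3.03, 5.14, 4.48 and 0.74, and without mice 59 and 61 those of the hindbrain and cerebellar lists were 2.34 and 0.02. Of the cerebellar genes 2 were higher in striatum, and without these mice 0 were higher and 1 was lower.

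**Figure D4:**
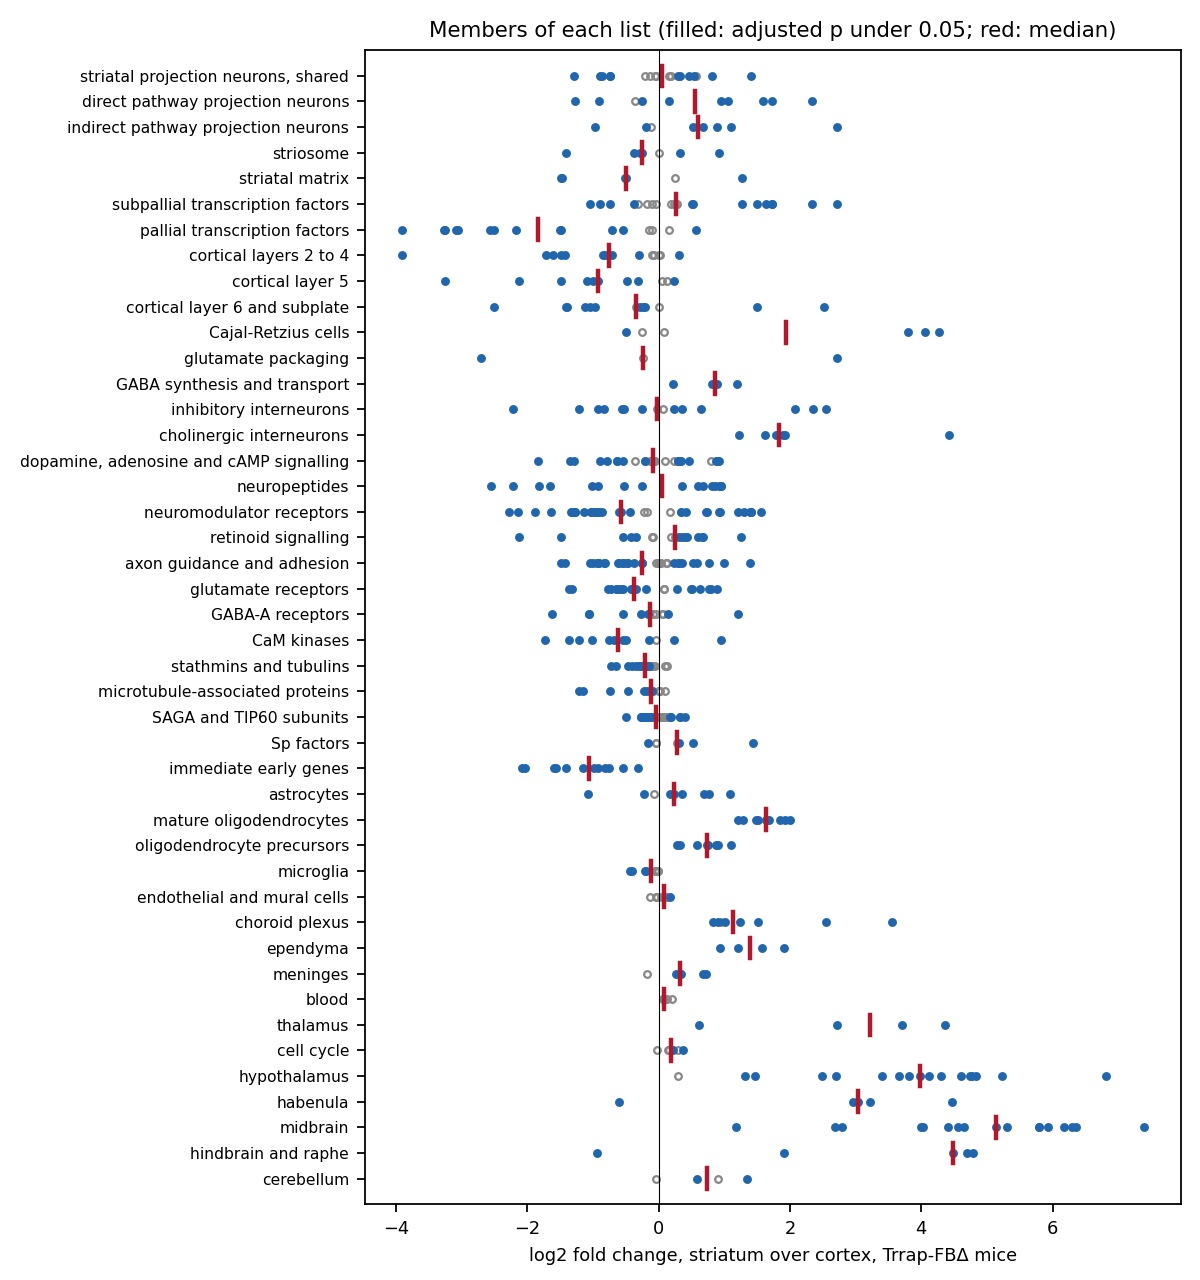
Log2 fold change of striatum over cortex in Trrap-FBΔ mice for each tested member of 44 gene lists, filled where the adjusted p was under 0.05, with the list median in red. Pallial factors, cortical layer markers and immediate early genes lay mostly below 0, oligodendrocyte and diencephalic or midbrain lists above 0, and lists of striatal projection neurons on both sides of it.

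The same tissue contrast in the control mice, which share no library with it, called 6429 of 18365 genes (35.0%), 17.1% higher in striatum and 18% higher in cortex, from 3 pairs in place of 4. Of the 1359 genes past 2-fold towards striatum in Trrap-FBΔ mice, 1175 were tested in controls. Their direction was the same for 1171 (99.7%), and 951 (80.9%) passed there too. Of the 832 past 2-fold towards cortex, 737 were tested in controls, 725 (98.4%) had the same direction and 609 (82.6%) passed. The median log2 fold changes were 1.43 in Trrap-FBΔ and 1.21 in controls for the first set, and -1.40 and -1.01 for the second. Since these genes were chosen for a large value in Trrap-FBΔ mice, a smaller median in controls is built into the choice.

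A test of the difference itself, over 14 libraries of 7 mice with mouse as a block, called 216 of 19658 genes (1.10%), 85 (0.432%) with a higher and 131 (0.666%) with a lower striatum-over-cortex value in Trrap-FBΔ than in control mice. For 176 of the 216 the tissue difference had the same sign in both genotypes and was larger in Trrap-FBΔ mice, 119 of these being genes higher in cortex and 57 genes higher in striatum. It was smaller for 10 and of opposite sign for 30. These signs are those of the fitted values, whether or not the tissue difference passed in either genotype. Among all genes called in Trrap-FBΔ mice, 5 higher in striatum and 6 higher in cortex were called in the opposite direction in controls. The count rested on single mice. It was 4 without mouse 59, 4 without mouse 61, 10 without control mouse 63, 65 without mouse 57 and 109 without mouse 60, against 281 without control mouse 58 and 156 without control mouse 64. Without both mice 59 and 61 the edgeR test called 0 genes, with 1971 at an unadjusted p under 0.05. Without the mouse block the count was 81. Mouse 63 was the only female among the control mice of this test, and the part of sex in the difference was not tested.

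Pallial transcription factors among the 216 included Neurod2 and Mef2c, with a larger deficit in striatum of Trrap-FBΔ mice. Neurod2, a pallial neuronal factor, had a log2 fold change of -2.56 in Trrap-FBΔ and -1.60 in control mice, a difference of -0.96 ± 0.16 (SE; adjusted p = 0.0314). In Trrap-FBΔ mice its levels were 17.8, 14.8, 18.1 and 16.3 CPM in striatum and 102, 95.8, 98.8 and 97.6 CPM in cortex. Control striatum held 28.8, 33.2, 23.6 and 17 CPM and control cortex 83.4, 72.1, 87.4 and 102 CPM. The striatum libraries of the genotypes overlapped only through the 17 CPM of control mouse 65, an unpaired library outside this test. Slc17a7 was at -2.71 and -1.60 (difference -1.11 ± 0.21; adjusted p = 0.0432), Mef2c at -3.06 and -2.26 (-0.80 ± 0.15) and Camk4 at -1.21 and -0.77 (-0.44 ± 0.09). On the other side Irx2 (1.68 ± 0.28), Tcf7l2 (1.02 ± 0.19) and Ebf3 (1.14 ± 0.17) had a larger excess in striatum of Trrap-FBΔ mice. Of these, Tcf7l2 is a member of the thalamic list, and the part of tissue content in these values was not tested.

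The 8 genes with the smallest p for this difference were Chrna3, Rxfp2, Hapln1, Npnt, Rab3d, Prrg3, Ipcef1 and Cdh24. Chrna3, a nicotinic receptor subunit gene strong in the habenula, had 9.53, 11.2, 9.26 and 12.1 CPM in Trrap-FBΔ striatum and 1.58, 1.23, 1.2 and 1.40 CPM in Trrap-FBΔ cortex. Control striatum had 11.3, 7.43, 9.02 and 12.2 CPM and control cortex 2.49, 4.21, 3.12 and 3.41 CPM, so that striatum overlapped between genotypes and cortex was lower in every Trrap-FBΔ library (difference 1.59 ± 0.15; adjusted p = 0.00743). Rxfp2, a relaxin family receptor gene, had 5.01, 5.35, 5.50 and 4.49 CPM in Trrap-FBΔ striatum and 3.26, 3.54, 3.11 and 3.83 CPM in Trrap-FBΔ cortex. In controls it had 2.24, 2.94, 2.31 and 2.98 CPM in striatum and 6.69, 5.01, 6.0 and 5.66 CPM in cortex. Its direction was opposite in the genotypes, at 0.56 and -1.15 (difference 1.72 ± 0.17; adjusted p = 0.00743). Hapln1, a link protein gene of the extracellular matrix, had 54.2, 54.8, 54.3 and 49.5 CPM in Trrap-FBΔ striatum and 113, 103, 107 and 96.4 CPM in cortex. Control libraries had 70.7, 90.3, 81.4 and 76.3 CPM in striatum and 98.1, 93.5, 105 and 104 CPM in cortex, so that striatum was lower in every Trrap-FBΔ library. Npnt, a matrix ligand of integrins, had differences of 1.14 ± 0.12, Rab3d, a vesicle GTPase gene, -0.81 ± 0.09, Prrg3 0.53 ± 0.06, Ipcef1 -0.74 ± 0.09 and Cdh24, a cadherin gene, 0.70 ± 0.09.

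**Figure D5:**
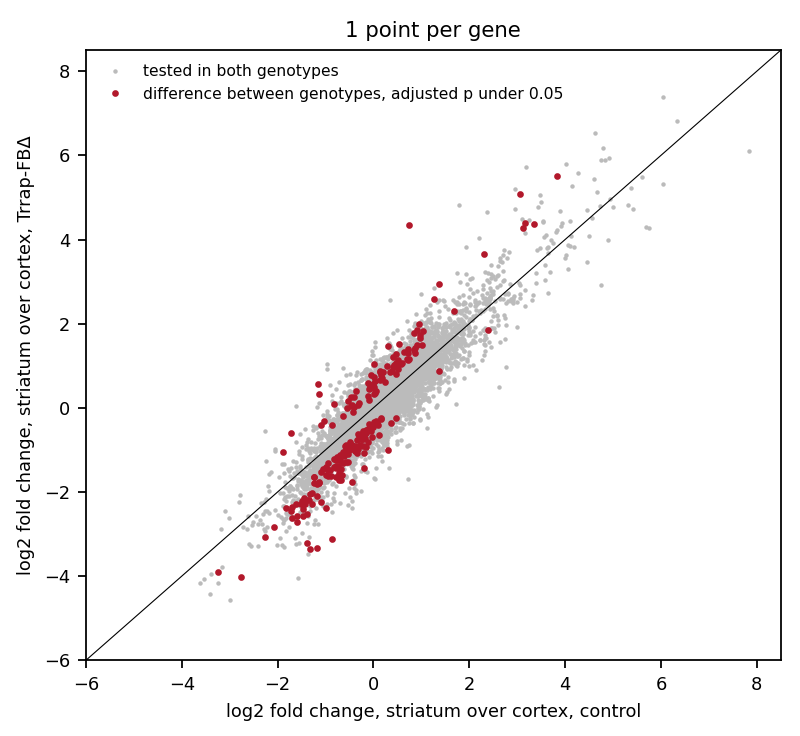
Log2 fold change of striatum over cortex in control mice (horizontal axis) and in Trrap-FBΔ mice (vertical axis) for 18141 genes tested in both, with the 216 genes whose difference passed in red and a line of equal values. Most red points lay farther from 0 in Trrap-FBΔ mice, and 30 had fitted values of opposite sign, whether or not these passed in either genotype.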

How the data were processed

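Striatum and cortex of P10 mice were profiled by RNA-seq in 16 libraries. The authors isolated RNA with a lipid tissue kit, prepared poly(A) libraries with TruSeq Stranded mRNA reagents, read single ends on a HiSeq2500 (bcl2fastq 1.8.4), mapped to GRCm38 with STAR 2.5.4b and counted uniquely mapped reads per gene on the matching strand with featureCounts 1.5.0. The authors deposited raw counts per gene for 53801 genes, which were used unchanged. Tissue dissection is not described in the sources used here.

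Genes passing filterByExpr were fitted after TMM normalization with edgeR 4.0.16 (quasi-likelihood, R 4.3.3), and each model held mouse as a block. Adjusted p values are Benjamini-Hochberg values over all genes of a fit, called under 0.05, and a second rule added a fold change over 2. The fits were 3 in number, striatum against cortex in the 4 Trrap-FBΔ mice, the same contrast in control mice 58, 63 and 64, and the difference between the genotypes over 14 libraries. Lists are described by counts and medians, with no set test. The number of a mouse pairs its tissues by label, and deviations of its striatum and cortex from their group means correlated at 0.144 to 0.365 (4 pairs), against -0.265 to 0.0987 between different mice (12 pairs). With 4 pairs an exact permutation test cannot go below a 2-sided p of 0.125. No 2 libraries of a group agreed within sampling noise (chi-square over degrees of freedom 8.15 to 24.5 over 12 pairs). Genes named are Trrap and Camk2a, the 12 largest changes per direction (called, same sign in 4 mice, tissues apart, at least 5 CPM in the higher tissue), the 5 most abundant past 2-fold per direction, the 8 smallest p values between genotypes, and members of 39 lists, and some genes that these rules select are not reported here. Members and lists were chosen with earlier results of these data known, and 5 lists of other brain regions and the fit without mice 59 and 61 were added after the values were seen. Promoters came from a RefSeq table of GRCm38.p6. Alternatives covered normalization, filters, DESeq2 1.42.0, limma 3.58.1 (voom), a minimum fold change of 1.2, thinned counts, the block and single mice. Scripts were tested on simulated data.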

Additional observations from a re-analysis of the deposited data

Results flagged for a closer look

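In 20 genes named above the striatum-over-cortex value differed between genotypes by the edgeR test, out of 216 genes in all. Those with a higher value in Trrap-FBΔ mice (log2 difference, Trrap-FBΔ minus control) were Rxfp2 at 1.72, Irx2 at 1.68, Chrna3 at 1.59, Ebf3 at 1.14, Npnt at 1.14, Tcf7l2 at 1.02, Cdh24 at 0.70, Chrm2 at 0.69, Prrg3 at 0.53 and Sparc at 0.42. Those with a lower value were Gm39822 at -2.05, 9130024F11Rik at -1.25, Slc17a7 at -1.11, Neurod2 at -0.96, Rab3d at -0.81, Mef2c at -0.80, Ipcef1 at -0.74, Sstr4 at -0.70, Hapln1 at -0.65 and Camk4 at -0.44. These calls depend on mice 59, 61 and 63, as given above.

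For 13 of the named genes 1 library of a Trrap-FBΔ group stood far from the other 3 by Dixon's criterion, which chance alone meets in about 1 in 20 groups, and 4.45% of 853 combinations of gene and group met it. In striatum these were mouse 57 for Ppp1r1b (128 CPM) and Adora2a (34.3 CPM), mouse 60 for Nkx2-1 (12.3 CPM), and mouse 61 for Ttr (257 CPM), Sp3 (59.9 CPM) and Hapln1 (49.5 CPM). In cortex they were mouse 57 for Grin2b (589 CPM), Reln (139 CPM), A830009L08Rik (17.1 CPM) and Supt3 (9.01 CPM), and mouse 61 for Slc1a2 (3299 CPM), Camk4 (505 CPM) and Tubb3 (363 CPM).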

How the results depend on the processing

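The count of genes that differed between tissues of Trrap-FBΔ mice stayed within 1.5 times of 10757 under all alternatives but one: it was 5737 when tested against a fold change of 1.2. Without the mouse block it was 10329, with DESeq2 9107, and from 9119 to 10997 with 1 mouse left out. The control contrast fell to 2960 against a fold change of 1.2, was 5668 without the block, and lay between 3647 (without mouse 63) and 5578 with 1 mouse left out. The difference between genotypes was less stable. From 216 it went to 81 without the block, 85 without the block over all 16 libraries, 948 without a filter on low counts, 421 with the DESeq2 Wald test, 3 against a fold change of 1.2 and 0 without mice 59 and 61, and lay between 4 and 281 with 1 mouse left out. The cause was not tested. Of 513 single genes, 3 changed sign where at least 1 of the values compared had passed the test, all without mice 59 and 61, where Dlx2 was at 0.30, Lhx6 at 0.018 and Gabra6 at -0.26. Every library held at least 28743866 counts, and genes near 0 CPM in cortex have fold changes that depend on few reads.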
